A study of Homo sapiens with 12 samples.

Results

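Complexes II to V of the mitochondrial respiratory chain were examined in neural progenitor cells (NPC) and in the embryonic stem cells (ESC) from which they were made, through the nuclear genes that code for their subunits and for proteins named with them. Members were taken by gene symbol (SDHA to SDHD, symbols beginning with UQCR, COX followed by a digit, or ATP5, and CYC1 and CYCS), and 60 of the 59050 symbols in the count table qualified. A further 99 symbols of this form that end in P with digits, the usual form of pseudogene names, were left out. The members comprised 4 genes of complex II, 10 of complex III, the carrier gene CYCS, 26 of complex IV and 19 of complex V. By role, 41 code for structural proteins used in most tissues, 8 are isoforms of restricted tissues or gene copies, and 11 code for assembly factors or regulators that carry COX or ATP5 in their symbols.

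Complex II, succinate dehydrogenase, passes electrons from succinate to ubiquinone, and complex III passes them on to cytochrome c. Complex IV, cytochrome c oxidase, hands them to oxygen, and complex V, the ATP synthase, uses the proton gradient built up on the way to make ATP. Complex II is made of nuclear products alone, whereas complexes III, IV and V each join nuclear subunits, synthesised on cytosolic ribosomes and imported, with subunits that mitochondria synthesise themselves. Pluripotent stem cells are known for a strong use of glycolysis, and neural cells for a greater reliance on oxidative phosphorylation.

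All libraries came from HUES8, a single human embryonic stem cell line, labelled wild type. NPC were made by 7 days of neural induction with 2.5 uM SB431542, which inhibits the receptors of Nodal and activin, and 0.05 uM LDN193189, which inhibits BMP receptors, with SB431542 left out for the last 2 days. ESC were kept on Matrigel in the stem cell medium mTeSR1. Total RNA depleted of rRNA and RNA bound to ribosomes were sequenced in each state, with 3 libraries per state and assay. The sources used here do not give how ribosomes were isolated. The labels do not say that the libraries of a group came from separate cultures, so p-values measure the spread between these libraries, which may be technical.

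RNA libraries held 19529738 to 35117370 counts and ribosome-bound libraries 2422756 to 4451196. Where a gene had 0 counts, the limit that this allows is 3 counts, or 0.0854 to 0.154 CPM (counts after scaling of each library by its total and TMM factor) in an RNA library and 0.674 to 1.24 CPM in a ribosome-bound one, for counting error only. The 5 stem cell markers (POU5F1, NANOG, DNMT3B, TDGF1 and GDF3) were lower and the 5 neural progenitor markers (PAX6, SOX1, OTX2, LHX2 and MAP2) higher in NPC in both assays. Markers of other cells also moved, and none of those listed was at 0 in all libraries of an assay. In RNA, neural crest markers (2 of 3 higher, 1 lower) summed to 75.2 to 77.0 CPM in NPC and 8.23 to 17.2 CPM in ESC. Muscle markers (2 of 5 higher) summed to 24.1 to 26.4 CPM in NPC and 0.256 to 0.878 CPM in ESC. Mesoderm and endoderm markers (4 of 6 lower) summed to 0.386 to 0.488 CPM in NPC and 11.4 to 12.8 CPM in ESC, and neuron markers (2 of 4 lower) to 7.48 to 8.95 CPM in NPC and 16.1 to 17.3 CPM in ESC. On ribosomes the same sums were 127 to 143 CPM in NPC and 27.7 to 36.96 CPM in ESC for neural crest (2 of 3 higher, 1 lower), and 152 to 209 CPM in NPC and 4.86 to 10.4 CPM in ESC for muscle (1 of 5 higher). They were 2.25 to 4.20 CPM in NPC and 251 to 283 CPM in ESC for mesoderm and endoderm (5 of 6 lower), and 28.4 to 31.7 CPM in NPC and 77.6 to 142 CPM in ESC for neurons (1 of 4 lower). Their part in the results was not tested. An ESC library stood apart in each assay. In RNA, ESC replicate 3 correlated with the other ESC libraries at Pearson r = 0.980 and 0.976 across genes, which are not independent replicates, and those libraries correlated with each other at 0.996. On ribosomes, ESC replicate 2 correlated with the others at 0.927 and 0.940, and those with each other at 0.976.

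The members' median fall was larger on ribosomes than in RNA, while the number that fell in RNA depended on single libraries. Counts were scaled per assay to CPM, and the fold change of NPC over ESC was tested for every gene of an assay with edgeR's quasi-likelihood test, with Benjamini-Hochberg adjustment and a threshold of 0.05. In RNA, 54 members passed the filter on low counts, of which 24 fell, 2 rose and 28 had no call. Over all 18631 genes tested, 26.2% fell and 26.4% rose (52.6% in either direction), against 44.4% and 3.7% of the members tested. The median log2 fold change was −0.33 over the members and 0.03 over all genes. Without ESC replicate 3, the library that stood apart, 40 members fell and the median was −0.45, and without NPC replicate 2 the number that fell was 13. These are bulk libraries, in which fewer cells of a type and less RNA per cell cannot be told apart.

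On ribosomes, 50 members passed the filter, of which 39 fell, 3 rose and 8 had no call. Over all 12250 genes tested there, 30.3% fell and 31.6% rose (61.8% in either direction), against 78% and 6% of the members tested. The median log2 fold change was −1.38 over the members, against −0.01 over all genes. At least 2-fold lower and called were 34 members, a cut at which all genes were not counted. In 21 members the ribosome-bound RNA fell with no call in RNA, among them SDHC, CYC1, COX4I1, COX7A2, ATP5F1A and ATP5PO. Without RNA ESC replicate 3, however, 13 of these 21 fell in RNA, 3 rose (COX7A2L, ATP5PO and ATP5MC2) and 5 had no call (UQCRC2, COX6C, COX7A2, COX11 and ATP5MPL). A further 18 fell in both assays with all libraries. ATP5F1E was called higher in both, and ATP5MF fell in RNA while it rose on ribosomes. The shares of all genes with each such pair of calls were not counted, so these numbers describe the members only.

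Translational efficiency sets the ribosome-bound level of a gene against its level in total RNA. Its change was taken from the assay-by-state term of a fit to all 12 libraries, so its calls rest on the same libraries as the tests above. Of the 50 members tested, 34 fell, 3 rose (COX17, ATP5ME and ATP5MF) and 13 had no call. Over the 11866 genes tested, 19.0% fell and 22.9% rose (41.9% in either direction), against 68% and 6% of the members tested. The median log2 change was −1.10 over the members and −0.05 over all genes.

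**Figure D1:**
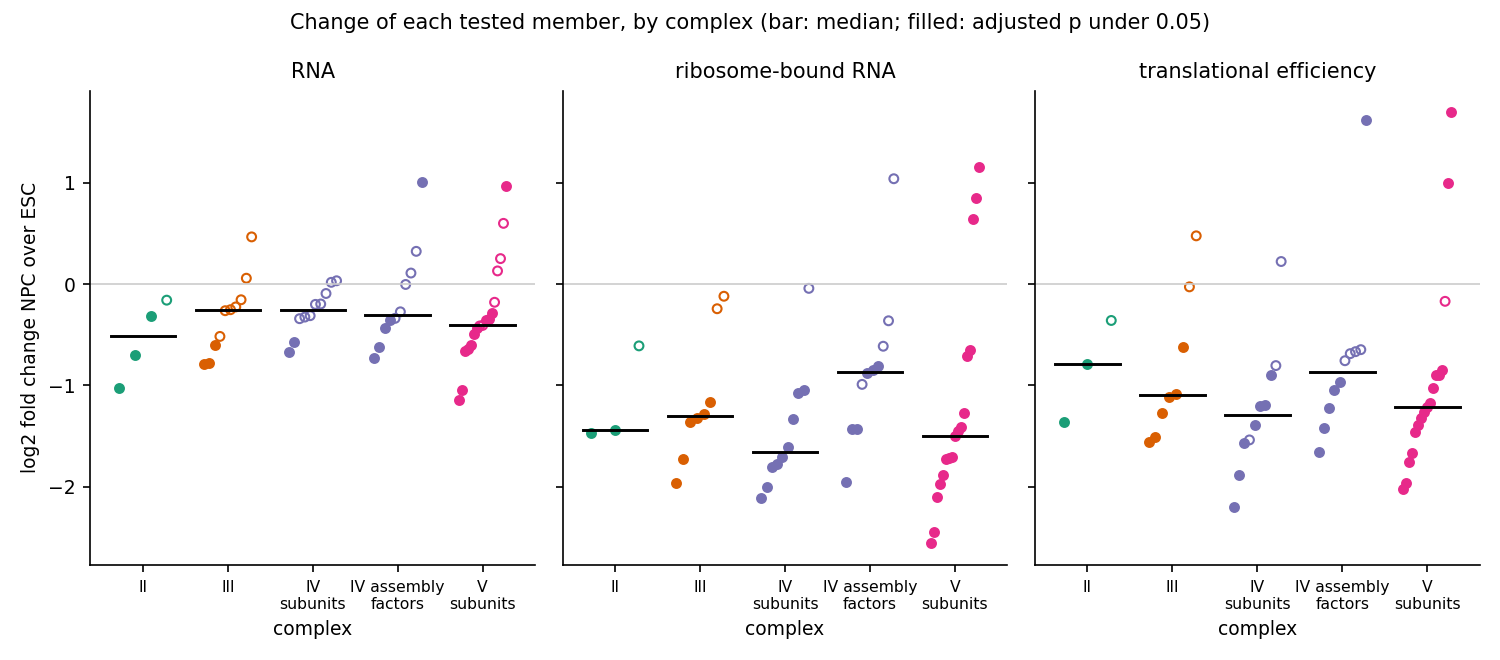
Log2 fold change of NPC over ESC (vertical axis) for each tested member in RNA, in ribosome-bound RNA and in translational efficiency, grouped by complex, with assembly factors of complex IV set apart from its subunits; bars are medians and filled points passed an adjusted p of 0.05. Most points lie between 0 and −1 in RNA and below −1 on ribosomes. ATP5MF, ATP5F1E and ATP5ME of complex V and COX17 of complex IV lie above 0 on ribosomes. The copy UQCRHL is drawn with complex III in RNA, whereas CYCS, ATP5IF1 and the other restricted isoforms and copies are not drawn.

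Summed over the 60 members, RNA came to 4628, 4718 and 4549 CPM in NPC libraries, against 5896, 6024 and 4964 CPM in ESC libraries. The NPC libraries were the lower ones in every case, by 1.22-fold on average. On ribosomes the sums were 4426, 4772 and 4678 CPM in NPC and 12608, 15022 and 13339 CPM in ESC, a 2.95-fold lower mean in NPC with no overlap. Each complex had its lower sum in NPC on ribosomes: complex II by 2.67-fold, complex III by 2.34-fold, complex IV by 2.80-fold and complex V by 3.25-fold. In RNA the same sums were lower in NPC by 1.30-, 1.24-, 1.09- and 1.22-fold, with overlap in complexes III and IV, where ESC replicate 3 was at 717 and 818 CPM and the NPC libraries at 683 to 722 and 912 to 960.04 CPM. Much of complex V rested on the catalytic subunits ATP5F1A and ATP5F1B, which together came to 1264 ± 175 CPM on ribosomes of NPC and 4853 ± 764 CPM on those of ESC (SD, n = 3 each). Without them the sum of complex V was 2.55-fold lower in NPC.

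With all libraries, the medians of the complexes on ribosomes lay between −1.48 and −1.21. Complex II had a median log2 fold change of −1.44 (3 genes tested), complex III −1.30 (8), complex IV −1.21 (20) and complex V −1.48 (18). Within complex IV the 10 structural subunits tested stood at −1.66 and the 10 assembly factors at −0.86, also with all libraries. Ribosome-bound ESC replicate 2 deviated unequally by complex from the other ESC libraries. Its median difference on the log2(CPM + 0.5) scale was 0.75 in complex IV, −0.27 in II, 0.23 in III and 0.29 in V. How the complexes compare on ribosomes therefore depends on that library, and their medians without it are not given here. In RNA the medians were −0.51, −0.26, −0.27 and −0.41 for complexes II, III, IV and V. For efficiency they were −0.79, −1.10, −1.12 and −1.19. Across the 50 members tested in both assays, the change on ribosomes was below that in RNA for 44, a count not taken over all genes. The changes of these members in RNA and on ribosomes correlated weakly (Pearson r = 0.32, Spearman rho = 0.30, as a description across genes measured in the same libraries).

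**Figure D2:**
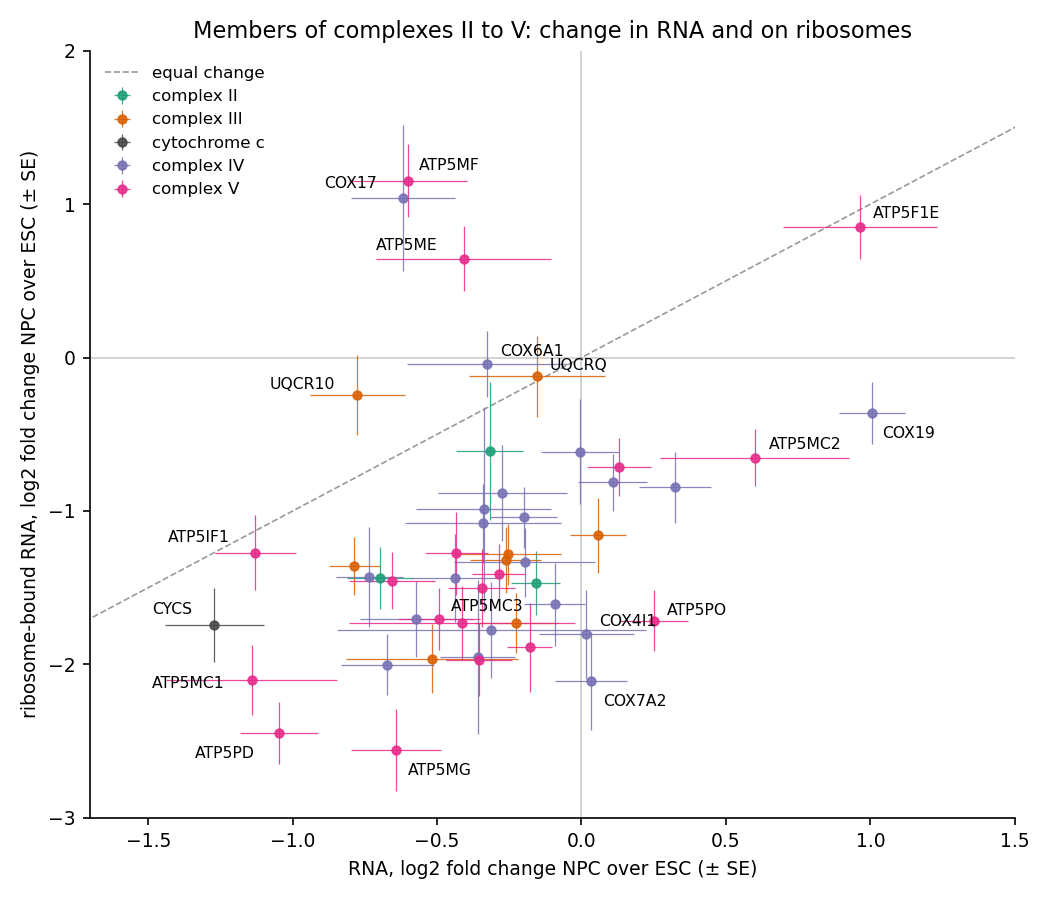
Log2 fold change of NPC over ESC in RNA (horizontal axis) against ribosome-bound RNA (vertical axis) for the 50 members tested in both, coloured by complex, with standard errors as lines and equal change as the dashed line. All but 6 members (UQCRQ, UQCR10, COX6A1, COX17, ATP5ME and ATP5MF) lie below the dashed line, with ATP5MG lowest on ribosomes and COX19 furthest to the right.

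Promoters are shown for 4 members that held the NRF1 motif described below, with the letters of the factors best known for driving respiratory genes marked. They are not typical, since most member promoters held none of the motifs searched. RefSeq promoters (assembly GRCh38.p14, 250 bases before to 50 after the gene start) were matched by symbol or gene ID for 47 of the 60 members and searched on both strands for the NRF1 motif (GCGCA, any base, then GCGC), ACCGGAAG (the ETS motif bound by GABP) and AAGATGGC (YY1). The NRF1 motif was in 13 member promoters (27.7%) and in 6.29% of all 27305 promoters, the ETS motif in 4 (8.51% and 2.32%) and the YY1 motif in 6 (12.8% and 3.03%). Some promoters held more than 1 kind, so that 18 member promoters (38.3%) had any of them, against 10.8% of all. Capitals mark the matches below, and a sequence reads CTTCCGGT where the ETS motif lies on the other strand.
SDHA: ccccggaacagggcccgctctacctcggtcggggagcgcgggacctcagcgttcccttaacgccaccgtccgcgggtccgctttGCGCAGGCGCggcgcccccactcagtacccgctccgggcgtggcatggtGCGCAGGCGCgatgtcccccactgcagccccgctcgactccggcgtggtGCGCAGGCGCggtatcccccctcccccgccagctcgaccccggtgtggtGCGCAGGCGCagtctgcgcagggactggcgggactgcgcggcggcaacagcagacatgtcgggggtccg
SDHD: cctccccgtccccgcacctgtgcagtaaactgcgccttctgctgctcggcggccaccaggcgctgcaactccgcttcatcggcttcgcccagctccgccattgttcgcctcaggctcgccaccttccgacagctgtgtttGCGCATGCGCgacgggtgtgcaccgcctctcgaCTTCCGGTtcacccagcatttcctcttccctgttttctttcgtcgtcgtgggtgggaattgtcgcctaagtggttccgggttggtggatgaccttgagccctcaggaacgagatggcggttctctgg
ATP5PO: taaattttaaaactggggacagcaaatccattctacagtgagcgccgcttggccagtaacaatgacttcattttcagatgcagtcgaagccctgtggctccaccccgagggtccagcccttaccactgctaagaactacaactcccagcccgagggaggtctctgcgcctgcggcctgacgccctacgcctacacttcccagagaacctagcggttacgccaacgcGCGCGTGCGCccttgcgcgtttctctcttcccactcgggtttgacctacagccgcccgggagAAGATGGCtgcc
ATP5ME: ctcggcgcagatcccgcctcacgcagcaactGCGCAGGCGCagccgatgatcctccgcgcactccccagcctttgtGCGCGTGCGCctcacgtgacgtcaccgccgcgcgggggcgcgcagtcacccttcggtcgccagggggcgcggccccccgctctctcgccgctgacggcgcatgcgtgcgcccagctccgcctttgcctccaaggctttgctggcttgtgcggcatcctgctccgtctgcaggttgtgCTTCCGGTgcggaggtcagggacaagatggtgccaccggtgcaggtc
The SDHA promoter (chr5:218070-218369, plus strand) belongs to a gene whose RNA fell, and held 4 NRF1 matches that begin 166, 117, 68 and 19 bases before the start, spaced 49 bases apart. The SDHD promoter (chr11:112086623-112086922, plus strand), also of a gene that fell in RNA, had an NRF1 and an ETS match. ATP5PO (chr21:33915755-33916054, minus strand), which fell on ribosomes without a call in RNA, had an NRF1 match and, after the start, a YY1 match. ATP5ME (chr4:674227-674526, minus strand), which rose on ribosomes, had 2 NRF1 matches and an ETS match. Of the 13 members with an NRF1 match, 8 fell, 4 had no call and 1 was not tested in RNA, and on ribosomes 6 fell, 1 rose, 3 had no call and 3 were not tested. Of all members tested, 44.4% fell in RNA and 78% on ribosomes, and of all genes tested 26.2% and 30.3%. The part of the motif in these calls was not tested. A match is a description of the letters, not of binding.

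In complex II, RNA of 3 of the 4 genes fell (all 4 without ESC replicate 3), and ribosome-bound RNA of 2 of the 3 tested fell. Of all genes tested, 26.2% fell in RNA (34.7% without ESC replicate 3) and 30.3% on ribosomes. SDHB, the iron-sulfur subunit, had 41.1, 42.7 and 37.2 CPM in NPC libraries, against 67.9, 68.4 and 60.001 CPM in ESC libraries. No library of one state reached the other, and SDHB fell by 0.70 ± 0.11 on the log2 scale (SE, adjusted p = 0.00126). Its ribosome-bound level was 35.5, 51.9 and 44.4 CPM in NPC and 115, 116 and 127 CPM in ESC (−1.44 ± 0.20, adjusted p = 8.13e-05), 2.71-fold lower, again without overlap. SDHC, a membrane anchor, stood in RNA at 139, 148 and 143 CPM in NPC and 162, 157 and 159.9 CPM in ESC, close together but without overlap (−0.16 ± 0.08, adjusted p = 0.15). Its ribosome-bound RNA was at 52.6, 36.8 and 57.2 CPM in NPC and 139, 132 and 136 CPM in ESC, 2.77-fold lower in NPC (adjusted p = 9.34e-05). The RNA of SDHC was called lower without ESC replicate 3 (−0.16, adjusted p = 0.0262). Its efficiency fell by 1.36 ± 0.23 (adjusted p = 0.000296).

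SDHD, the other anchor, had 17.2, 20.2 and 20.2 CPM in NPC libraries, against 37.8, 35.1 and 44.6 CPM in ESC libraries. All NPC libraries were below all ESC libraries, 2.04-fold on average (adjusted p = 0.000513). On ribosomes it had only 4, 8 and 7 counts in NPC libraries and 8, 5 and 15 counts in ESC libraries and was not tested. SDHA, the flavoprotein that oxidises succinate, had 25.4, 23.4 and 24.997 CPM in NPC libraries, against 32.9, 28.8 and 30.3 CPM in ESC libraries. The groups did not overlap and SDHA fell (−0.32 ± 0.12, adjusted p = 0.0482). The call ended without ESC replicate 1 (adjusted p = 0.13), without NPC replicate 1, 2 or 3 (0.125, 0.199 and 0.14) and in the fit blocked on replicate number (0.0663). On ribosomes SDHA had 12, 20 and 12 counts in NPC libraries and 29, 7 and 22 counts in ESC libraries, which overlapped (−0.61 ± 0.45, adjusted p = 0.256). Its copies SDHAP1 and SDHAP3 were counted in the same libraries, and the sources used here do not give how reads matching several places were counted, so SDHA values are uncertain.

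In complex III, 6 of the 8 members tested on ribosomes fell, against 30.3% of all genes. In RNA 3 of 10 did, a share near the 26.2% of all genes, and 8 of 10 did without ESC replicate 3, against 34.7%. CYC1, cytochrome c1 of the electron path, had on ribosomes 47.4, 40.4 and 41.7 CPM in NPC libraries, against 141, 219 and 146 CPM in ESC libraries. The gap was wide, with CYC1 3.90-fold lower in NPC (−1.96 ± 0.22, adjusted p = 1.88e-05). In RNA it had 47.8, 47.4 and 41.3 CPM in NPC libraries, against 75.4, 85.6 and 34.2 CPM in ESC libraries, where ESC replicate 3 lay below every NPC library (−0.52 ± 0.30, adjusted p = 0.18). Without that library CYC1 fell in RNA as well (−0.83, adjusted p = 3.07e-15), and efficiency, which fell by 1.51 ± 0.37 in all libraries, still fell (−1.22, adjusted p = 0.00145).

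UQCRH, the hinge protein that sits beside cytochrome c1, had on ribosomes 54.2, 55.6 and 64.9 CPM in NPC libraries, against 177, 225 and 179 CPM in ESC libraries (−1.73 ± 0.20, adjusted p = 1.9e-05). In RNA it stood at 57.04, 60.1 and 56.8 CPM in NPC and 71.6, 77.6 and 54.2 CPM in ESC, overlapping through ESC replicate 3 (−0.23 ± 0.14, adjusted p = 0.224), and it fell without that library (−0.36, adjusted p = 7.91e-06). UQCRHL, its intronless copy, was at 1.69, 1.82 and 1.13 CPM in NPC and 1.23, 1.24 and 0.869 CPM in ESC in RNA, overlapping and with no call (adjusted p = 0.18), and had 0 counts in all ribosome-bound libraries. UQCRFS1, the Rieske iron-sulfur protein, fell in both assays (−0.79 ± 0.09 in RNA, −1.36 ± 0.19 on ribosomes). The core proteins UQCRC1 and UQCRC2 fell on ribosomes (−1.28 ± 0.20 and −1.16 ± 0.24), and so did the small subunit UQCRB (−1.32 ± 0.22). In RNA their log2 fold changes were −0.25, 0.06 and −0.26, without a call. Without ESC replicate 3, UQCRC1 (−0.45, adjusted p = 8.37e-09) and UQCRB (−0.26, adjusted p = 0.0114) fell in RNA too.

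Small subunits of complex III gave the exceptions. UQCRQ had on ribosomes 131, 111 and 109 CPM in NPC libraries, against 88.3, 187 and 107 CPM in ESC libraries, with overlapping groups (−0.12 ± 0.26, adjusted p = 0.711), and no call in RNA (−0.15 ± 0.24) or in efficiency (−0.03 ± 0.36). Without RNA ESC replicate 3 its RNA fell (−0.40, adjusted p = 0.00014), and without both libraries that stood apart its efficiency rose by 0.57. UQCR10 fell in RNA, with 15.7, 14.5 and 13.3 CPM in NPC libraries, against 24.6, 29.6 and 20.3 CPM in ESC libraries (−0.78 ± 0.17, adjusted p = 0.00496). On ribosomes it stood at 12.6, 14.6 and 9.34 CPM in NPC and 12.9, 14.7 and 15.4 CPM in ESC, with groups that overlapped (−0.24 ± 0.26, adjusted p = 0.435). UQCR11 fell in RNA (−0.60 ± 0.13, adjusted p = 0.00494) but had only 5, 7 and 6 counts in NPC libraries and 1, 2 and 3 counts in ESC libraries on ribosomes, too few for the filter, although its RNA libraries held 647 to 1089 counts each.

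CYCS, the soluble carrier between complexes III and IV that also takes part in apoptosis, fell in both assays. Its fall was the largest of a called member in RNA with all libraries, and was −1.05 without ESC replicate 3, behind ATP5MC1 (−1.44), ATP5IF1 (−1.20) and ATP5PD (−1.16). It had 52.3, 51.8 and 57.8 CPM in NPC libraries, against 113, 111 and 167 CPM in ESC libraries. Every ESC library was above every NPC library, and CYCS was 2.41-fold lower in NPC (−1.27 ± 0.17, adjusted p = 0.00047). On ribosomes the values were 10.97, 13.8 and 10.3 CPM in NPC and 35.2, 48.6 and 33.99 CPM in ESC, 3.35-fold lower and without overlap (−1.74 ± 0.24, adjusted p = 7.37e-05). Its efficiency had no call (−0.52 ± 0.31, adjusted p = 0.192), and fell without RNA ESC replicate 3, in which CYCS was highest (−0.77, adjusted p = 0.0167).

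Of the 10 structural subunits of complex IV, 9 fell on ribosomes, against 30.3% of all genes. In RNA COX5A and COX7B fell, 2 of 10 against 26.2% of all genes. Without ESC replicate 3 the number was 8 of 10, against 34.7%. COX7A2, a late-joining subunit, had on ribosomes 167, 139 and 156 CPM in NPC libraries, against 462, 1059 and 479 CPM in ESC libraries. It was 4.32-fold lower in NPC without overlap (−2.11 ± 0.32, adjusted p = 0.000147). ESC replicate 2 was the highest library, and without it the fall was −1.62 (adjusted p = 3.23e-13). In RNA COX7A2 was nearly level, at 113, 114 and 109 CPM in NPC and 113, 124 and 92.05 CPM in ESC (0.03 ± 0.12, adjusted p = 0.841), with groups that overlapped. Its efficiency fell by 2.20 ± 0.37 (adjusted p = 0.000241), the largest fall among the members called with all libraries. Without ribosome-bound ESC replicate 2 it was −1.69, behind ATP5F1A (−1.99), ATP5PO (−1.88), ATP5MG (−1.78) and ATP5F1B (−1.73). COX7A1, the heart and muscle isoform, had 0 to 6 counts per RNA library and COX7A2L, a factor for joining complexes III and IV into supercomplexes, is described with the assembly factors.

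COX4I1, which begins the assembly of the enzyme with COX5A, had on ribosomes 216, 221 and 206 CPM in NPC libraries, against 492, 1111 and 645 CPM in ESC libraries. The lowest ESC library was above the highest NPC library, and COX4I1 was 3.49-fold lower (−1.80 ± 0.29, adjusted p = 0.000225). RNA of COX4I1 was at 177, 178 and 165 CPM in NPC and 181, 205 and 128 CPM in ESC, overlapping (0.02 ± 0.16, adjusted p = 0.938), with a fall called without ESC replicate 3 (−0.15, adjusted p = 0.0352). Its efficiency fell by 1.88 ± 0.35 (adjusted p = 0.000546). COX4I2, the isoform of lung and low oxygen, had 0 or 1 count in every library of either assay. COX5A fell in both assays (−0.67 ± 0.16 in RNA, −2.001 ± 0.20 on ribosomes). COX5B, COX6C and COX7C fell on ribosomes (−1.33 ± 0.23, −1.61 ± 0.27 and −1.04 ± 0.20) without a call in RNA (−0.20, −0.09 and −0.20). Without RNA ESC replicate 3, COX5B (−0.45, adjusted p = 3.06e-07) and COX7C (−0.29, adjusted p = 8.8e-05) fell in RNA, and COX6C had no call.

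COX6A1 was the structural subunit of complex IV that had no call in any comparison. It stood on ribosomes at 22.3, 21.3 and 24.6 CPM in NPC and 19.5, 24.7 and 26.2 CPM in ESC, fully overlapping (−0.04 ± 0.22, adjusted p = 0.876), and in RNA at 23.1, 26.4 and 19.9 CPM in NPC and 29.7, 40.05 and 17.3 CPM in ESC (−0.33 ± 0.28, adjusted p = 0.357). RNA ESC replicate 3 was the lowest of those libraries, and without it COX6A1 fell in RNA (−0.60, adjusted p = 2.3e-07). COX6A2, its heart and muscle isoform, had 0 counts in all libraries.

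COX6B1, a subunit that faces the intermembrane space, had on ribosomes 338, 307 and 298 CPM in NPC libraries, against 523, 938 and 534 CPM in ESC libraries and fell without overlap (−1.08 ± 0.26, adjusted p = 0.00333). In RNA it had 64.6, 61.9 and 62.1 CPM in NPC and 85.3, 108 and 45.4 CPM in ESC, with ESC replicate 3 below the NPC libraries (−0.34 ± 0.27, adjusted p = 0.321), and without that library it fell (−0.63, adjusted p = 3.61e-11). The testis isoform COX6B2 stayed under 1 CPM in RNA, at 0.564, 0.364 and 0.862 CPM in NPC and 0.562, 0.759 and 0.307 CPM in ESC, overlapping and with no call (adjusted p = 0.862). COX7B had 35.8, 27.8 and 30.5 CPM in NPC and 80.4, 140.5 and 86.9 CPM in ESC on ribosomes (−1.705 ± 0.25, adjusted p = 0.000107), a fall without overlap. In RNA it was at 25.8, 28.9 and 27.5 CPM in NPC and 46.01, 47.6 and 28.5 CPM in ESC, overlapping through ESC replicate 3 (−0.57 ± 0.20, adjusted p = 0.0397), a call that held among single-library omissions only without ESC replicate 3, with adjusted p up to 0.127 without any other library. COX7B2, of the testis, had 0 counts throughout.

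COX8A was the member most affected by a single RNA library, with 18.5, 19.5 and 15.1 CPM in NPC libraries, against 27.7, 32.9 and 5.16 CPM in ESC libraries. ESC replicate 3 was the lowest of all, 2.44 below the other ESC libraries on the log2(CPM + 0.5) scale, and the other ESC libraries were above all NPC libraries. No change was called with it (−0.31 ± 0.53, adjusted p = 0.65), and a fall without it (−0.78, adjusted p = 1.36e-10). On ribosomes COX8A had 115, 86.2 and 111 CPM in NPC and 246, 561 and 264 CPM in ESC and fell 3.42-fold without overlap (−1.77 ± 0.31, adjusted p = 0.000423). COX8C, its testis isoform, was at or under 0.153 CPM in every RNA library and at 0 counts on ribosomes.

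Of the 10 assembly factors of complex IV, 6 fell on ribosomes, against 30.3% of all genes there, with changes between −1.95 and 1.04. In RNA 4 fell and 1 rose, against 26.2% and 26.4% of all genes. Without ESC replicate 3 the numbers were 5 and 2, against 34.7% and 34.9%. COX19, which handles copper for the enzyme, had 31.98, 33.6 and 30.5 CPM in NPC libraries, against 16.3, 16.3 and 15.2 CPM in ESC libraries. It was the largest rise of a called member in RNA, 2.01-fold (1.01 ± 0.12, adjusted p = 0.000205), without overlap. On ribosomes it stood at 22.3, 26.95 and 29.4 CPM in NPC and 34.9, 35.1 and 31.6 CPM in ESC, where the order turned round, NPC below ESC without overlap but with no call (−0.36 ± 0.20, adjusted p = 0.139). Its efficiency fell by 1.42 ± 0.23 (adjusted p = 0.000205).

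COX17, the copper chaperone that feeds the enzyme's metal sites, fell in RNA. It had 3.87, 3.58 and 3.57 CPM in NPC libraries, against 5.21, 6.87 and 4.75 CPM in ESC libraries (−0.62 ± 0.18, adjusted p = 0.0203). The groups did not overlap, and the call ended without NPC replicate 1, 2 or 3 (adjusted p = 0.0558, 0.079 and 0.0765). On ribosomes it had 41, 27 and 45 counts in NPC libraries and 6, 23 and 15 counts in ESC libraries, which in CPM overlapped through ESC replicate 2 (1.04 ± 0.48, adjusted p = 0.0772). Without that library it rose (1.74, adjusted p = 0.00041). Efficiency of COX17 rose by 1.62 ± 0.52 (adjusted p = 0.0201), by 2.41 without both libraries that stood apart, and had no call without ribosome-bound ESC replicate 3 or NPC replicate 1 (adjusted p = 0.0601 and 0.0583).

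COX7A2L had 78.9, 87.1 and 78.02 CPM in NPC and 67.4, 72.2 and 55.5 CPM in ESC in RNA, above in NPC without overlap but with no call (0.32 ± 0.13, adjusted p = 0.0605; 0.0400 in the fit blocked on replicate number). On ribosomes it fell, with 79.7, 71.3 and 70.9 CPM in NPC and 102, 181 and 117 CPM in ESC (−0.84 ± 0.23, adjusted p = 0.00757). COX10, which makes heme O on the way to heme A, fell in both assays (−0.73 ± 0.12 in RNA, −1.43 ± 0.33 on ribosomes), whereas COX15, which acts after it, had no call in either (−0.61 ± 0.34 on ribosomes). The efficiency of COX15 was called lower without RNA ESC replicate 3, but not with ribosome-bound ESC replicate 2 left out as well. COX18 and COX20, which insert and guard the mitochondrially made subunit COX2, fell on ribosomes (−1.43 ± 0.29 and −1.95 ± 0.50). Both fell in RNA too (−0.44 ± 0.15 and −0.36 ± 0.13), calls that ended without ESC replicate 1 or 2 among others (adjusted p up to 0.17 and 0.162). COX20 had only 51 counts in all ribosome-bound libraries together. COX11, a copper delivery protein, and COX14, which holds newly made COX1, fell on ribosomes (−0.81 ± 0.19 and −0.88 ± 0.31) without a call in RNA, where COX14 fell without ESC replicate 3 (−0.44, adjusted p = 0.00443). The COX14 call ended without ribosome-bound ESC replicate 2 (−0.47, adjusted p = 0.0814) or any NPC replicate (adjusted p up to 0.114). COX16, with 3 to 24 counts per ribosome-bound library, had no call in any comparison with all libraries. On ribosomes it was called lower without ESC replicate 1 (−1.48, adjusted p = 0.0445).

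Complex V held the 2 largest called falls on ribosomes, ATP5MG and ATP5PD, and all 3 rises, although COX17 of complex IV rose too without ESC replicate 2. Of its 18 members tested there, 15 fell (83.3%) and 3 rose (16.7%), against 30.3% and 31.6% of all genes. In RNA 11 fell (61.1%) and 1 rose (5.56%), against 26.2% and 26.4%. Without ESC replicate 3 the RNA numbers were 14 and 3, against 34.7% and 34.9% of all genes. The F1 head is the part that makes ATP. Its main subunits ATP5F1A and ATP5F1B were 3.70- and 3.91-fold lower on ribosomes (−1.89 ± 0.29 and −1.97 ± 0.24), and in RNA the log2 fold changes were −0.18 ± 0.08 (no call) and −0.36 ± 0.11 (called). Without RNA ESC replicate 3 ATP5F1A fell as well (−0.16, adjusted p = 0.0167). ATP5F1B had 722, 881 and 861 CPM on ribosomes of NPC and 3263, 2922 and 3458 CPM on those of ESC, far apart. ATP5F1C, the rotating shaft, fell in both (−0.29 ± 0.09 and −1.41 ± 0.19), and ATP5F1D on ribosomes (−1.73 ± 0.24), with a fall in RNA called without ESC replicate 3 (−0.80, adjusted p = 2.25e-12). The RNA calls of ATP5F1B and ATP5F1C each ended without ESC replicate 1 or any single NPC replicate, with adjusted p up to 0.111 and 0.148.

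ATP5F1E, the small epsilon subunit of the head, rose. It had 13.4, 13.8 and 15.1 CPM in NPC libraries, against 8.49, 8.98 and 4.14 CPM in ESC libraries, every NPC library above every ESC library (0.96 ± 0.27, adjusted p = 0.0166; 0.0542 without NPC replicate 3). Its ribosome-bound RNA was at 48.4, 47.7 and 43.8 CPM in NPC and 26.1, 30.8 and 21.04 CPM in ESC, 1.81-fold higher and again without overlap (0.85 ± 0.21, adjusted p = 0.00371). Its copy ATP5F1EP2 had 139, 107 and 129 counts on ribosomes of NPC and 67, 146 and 110 on those of ESC, and 0 counts in all RNA libraries. With the counts of both added together, no rise on ribosomes was called (0.36, adjusted p = 0.259). The value for ATP5F1E on ribosomes is therefore uncertain.

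All 4 subunits of the peripheral stalk, which keeps the head from turning, fell on ribosomes. ATP5PD had 63.6, 63.7 and 72.7 CPM in NPC libraries, against 329, 419 and 344 CPM in ESC libraries there. The lowest ESC library was several times the highest NPC library, and ATP5PD was 5.45-fold lower (−2.45 ± 0.20, adjusted p = 2.05e-06). Its RNA was 2.07-fold lower, at 44.7, 50.2 and 50.5 CPM in NPC and 106, 112 and 83.4 CPM in ESC (−1.05 ± 0.13, adjusted p = 0.000383), also without overlap. ATP5PO, the subunit that joins stalk and head, had in contrast more RNA in each NPC library, at 73.7, 70.97 and 75.4 CPM in NPC and 66.2, 65.4 and 53.4 CPM in ESC, without a call (0.25 ± 0.12, adjusted p = 0.105; 0.0402 without ESC replicate 3). Its ribosome-bound level was 39.05, 40.2 and 45.3 CPM in NPC and 127, 163 and 121 CPM in ESC, 3.28-fold lower and without overlap (−1.72 ± 0.20, adjusted p = 2.18e-05). Its efficiency fell by 2.02 ± 0.23 (adjusted p = 9.1e-06). ATP5PB and ATP5PF fell in both assays (−0.66 ± 0.15 and −0.43 ± 0.11 in RNA, −1.45 ± 0.19 and −1.28 ± 0.27 on ribosomes). The RNA call of ATP5PF ended without NPC replicate 2 or 3 (adjusted p = 0.065 and 0.0591).

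The c ring, the rotor that protons turn, is built from identical mature subunits that 3 genes encode, and these genes changed unequally. ATP5MC1 had 27.7, 28.8 and 25.98 CPM in NPC libraries, against 66.3, 82.9 and 32.7 CPM in ESC libraries, without overlap and 2.21-fold lower in NPC (−1.14 ± 0.30, adjusted p = 0.0124). ATP5MC3 was at 124, 120.0 and 116 CPM in NPC and 183, 189.9 and 134 CPM in ESC and fell (−0.49 ± 0.14, adjusted p = 0.0187), with calls that ended without any single NPC replicate (adjusted p up to 0.0749). ATP5MC2 was at 183, 173 and 159 CPM in NPC and 134, 152 and 53.5 CPM in ESC, above in every NPC library but with no call (0.60 ± 0.33, adjusted p = 0.161). ESC replicate 3 was the lowest library of ATP5MC2, and a rise was called without it (0.26, adjusted p = 0.000692) and in the fit blocked on replicate number (0.72, adjusted p = 0.0326).

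On ribosomes all 3 c-ring genes fell, ATP5MC1 most. ATP5MC1 had 62.3, 62.1 and 41.2 CPM in NPC and 198, 264 and 246 CPM in ESC (−2.10 ± 0.23, adjusted p = 1.32e-05). For ATP5MC3 the values were 128, 163 and 161 CPM in NPC and 499.6, 485 and 487 CPM in ESC (−1.704 ± 0.20, adjusted p = 2.44e-05). ATP5MC2 had 133, 139.5 and 148 CPM in NPC and 206, 246 and 210.2 CPM in ESC (−0.65 ± 0.19, adjusted p = 0.00923), a call that ended without NPC replicate 1 (adjusted p = 0.0574). None of these groups overlapped. The log2 ratio of ATP5MC2 to ATP5MC1 counts within a library, in which scaling cancels, was 2.64 ± 0.07 in NPC and 0.87 ± 0.15 in ESC in RNA, and 1.37 ± 0.41 in NPC and −0.09 ± 0.14 in ESC on ribosomes (SD, n = 3 each). The differences of 1.77 and 1.46 each had p = 0.1 by a two-sided exact permutation test, the smallest that 3 against 3 allows. The ratio of ATP5MC2 to ATP5MC3 differed by 1.21 in RNA and 1.06 on ribosomes, each likewise without overlap, and that of ATP5MC3 to ATP5MC1 by 0.56 and 0.40 (exact permutation p = 0.1 and 0.2 over 3 pairs of genes, unadjusted).

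**Figure D3:**
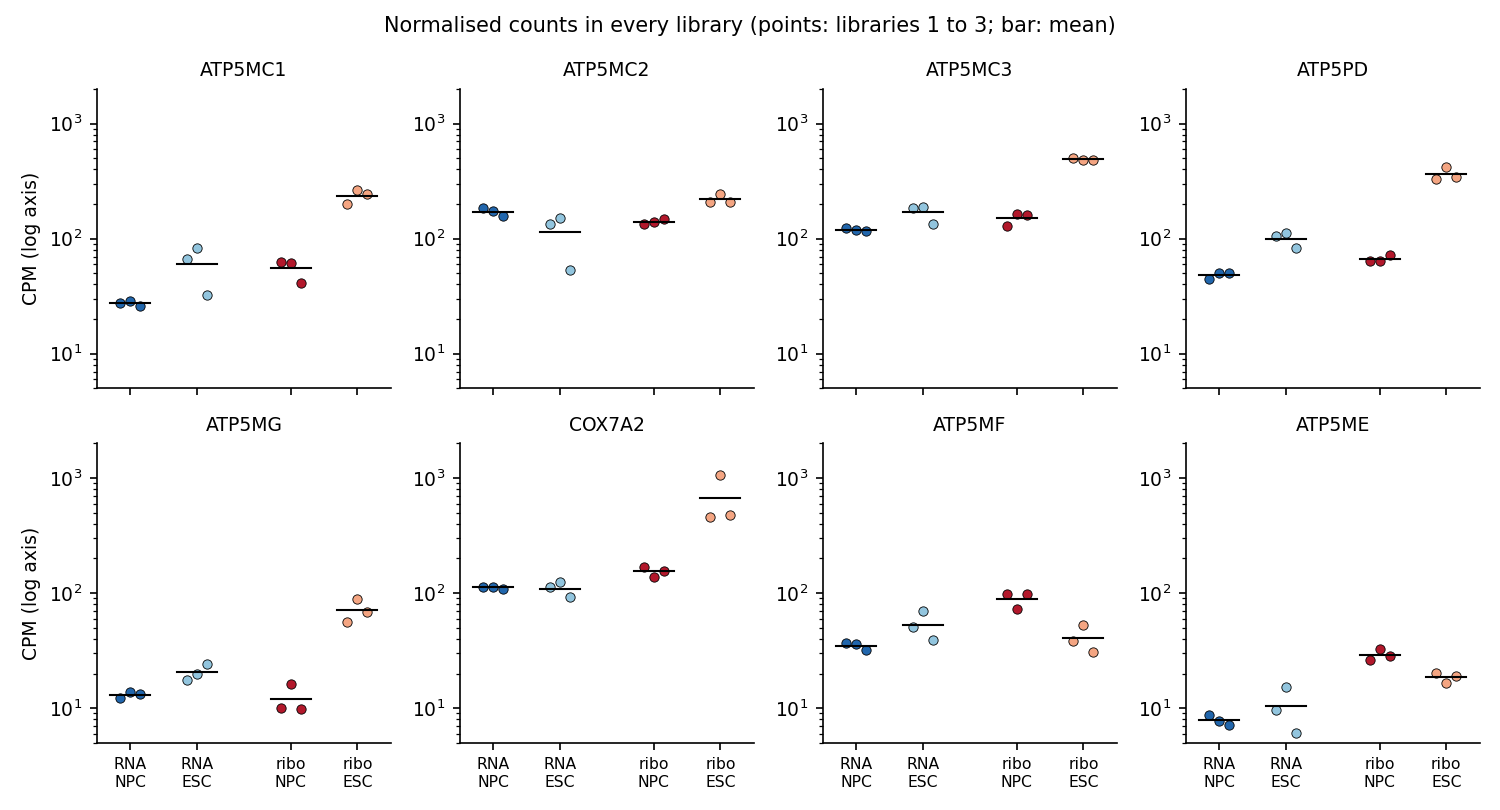
CPM on a log axis in each library of 8 complex V and IV genes, with NPC left of ESC for RNA and for ribosome-bound RNA, points for libraries and bars for means of 3. The ATP5MC2 points lie higher in NPC than in ESC in RNA while those of ATP5MC1 and ATP5MC3 lie lower, COX7A2 overlaps in RNA and separates on ribosomes, and ATP5MF and ATP5ME are higher in NPC on ribosomes.

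Small membrane subunits that shape the dimers of the ATP synthase moved in opposite directions. ATP5MG, subunit g, had on ribosomes 10.004, 16.3 and 9.80 CPM in NPC libraries, against 56.2, 88.5 and 68.8 CPM in ESC libraries. This was the largest fall of a called member there, 5.89-fold and without overlap (−2.56 ± 0.27, adjusted p = 9.93e-06). Its RNA fell by less, at 12.3, 13.8 and 13.3 CPM in NPC and 17.4, 19.8 and 24.2 CPM in ESC (−0.64 ± 0.16, adjusted p = 0.009), and its efficiency fell by 1.97 ± 0.33 (adjusted p = 0.000253). ATP5MGL, a copy of ATP5MG, was at or under 0.488 CPM in RNA and was not tested.

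ATP5MF, subunit f, showed the reverse. On ribosomes it had 98.4, 72.2 and 97.99 CPM in NPC libraries, against 38.3, 52.9 and 30.5 CPM in ESC libraries. The NPC libraries were all higher, 2.22-fold on average (1.15 ± 0.24, adjusted p = 0.0013). Its RNA fell, at 36.8, 36.1 and 31.9 CPM in NPC and 50.4, 69.6 and 38.7 CPM in ESC, with a narrow gap between the groups (−0.60 ± 0.20, adjusted p = 0.0383), a call that held among single-library omissions only without ESC replicate 3 (2.98e-12, against up to 0.128). Its efficiency rose by 1.70 ± 0.32 (adjusted p = 0.00064), and it also rose in each single-library omission. This was the largest rise among the members called with all libraries, but without ribosome-bound ESC replicate 2 COX17 rose by 2.33 and ATP5MF by 1.93. Reads of a readthrough transcript with the neighbouring PTCD1 were 0 to 3 counts per library.

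ATP5ME, subunit e, also rose on ribosomes, with 26.5, 32.9 and 28.3 CPM in NPC libraries, against 20.1, 16.5 and 19.2 CPM in ESC libraries (0.65 ± 0.21, adjusted p = 0.0193). The groups did not overlap, and no rise was called without ESC replicate 3 or NPC replicate 2 (adjusted p = 0.0517 and 0.0763) or in the fit blocked on replicate number (0.0581). In RNA it was at 8.75, 7.69 and 7.16 CPM in NPC and 9.66, 15.4 and 6.08 CPM in ESC, overlapping (−0.41 ± 0.30, adjusted p = 0.292), and it fell without ESC replicate 3, the lowest library (−0.69, adjusted p = 8.41e-06). The efficiency call (0.99 ± 0.37, adjusted p = 0.0398) ended without any single library other than RNA ESC replicate 1 or 3 (adjusted p up to 0.129), and under each other scaling tried. DAPIT (ATP5MD) and the 6.8 kDa proteolipid (ATP5MPL) fell on ribosomes (−1.50 ± 0.25 and −0.71 ± 0.19). In RNA ATP5MD fell slightly (−0.35 ± 0.12, adjusted p = 0.0359; 0.0524 in the fit blocked on replicate number), a call that held among single-library omissions only without ESC replicate 3 (adjusted p up to 0.153 otherwise). ATP5MPL had no call in RNA (0.13 ± 0.11).

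ATP5IF1, which blocks the ATP synthase from running backwards, was among the largest falls in RNA, with 7.06, 6.21 and 6.72 CPM in NPC libraries, against 14.7, 15.7 and 13.2 CPM in ESC libraries (−1.13 ± 0.14, adjusted p = 0.000313). No libraries overlapped. On ribosomes the values were 104, 99.7 and 99.6 CPM in NPC and 182, 342 and 209 CPM in ESC (−1.27 ± 0.25, adjusted p = 0.000836), a fall of nearly the same size, and its efficiency had no call (−0.20 ± 0.29, adjusted p = 0.602). ATP5IF1 had the highest level of efficiency of the 50 members in both states, at 3.83 in NPC and 4.02 in ESC on a log2 scale of mean ribosome-bound over mean RNA CPM with 0.5 added to each. This level is relative to the totals of each assay. The lowest was −3.10 for COX20 in NPC and −2.43 for COX15 in ESC, and the median over members was 0.14 in NPC and 1.15 in ESC.

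How far the counts rest on single libraries was examined next. In RNA ESC replicate 3 the median difference of the members tested from the mean of the other 2 libraries was −0.30 on the log2(CPM + 0.5) scale, against −0.01 for all genes, and 6 of 54 (CYC1, COX8A, ATP5MC2, ATP5MC1, ATP5F1D and COX6B1) lay below −1. Without that library 40 members fell and 5 rose in RNA, against 34.7% and 34.9% of the 19340 genes then tested, with 19 calls gained and 0 lost and a median of −0.45. Leaving out any other RNA library ended 5 to 11 of the 26 calls, and 14 calls held in all 6 omissions. The lowest count of members that fell, 13, came without NPC replicate 2. With the replicate number as a block, 21 members fell and 4 rose, with the calls of SDHA, COX20 and ATP5MD lost and those of COX7A2L and ATP5MC2 gained.

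In ribosome-bound ESC replicate 2 the same difference had a median of 0.42 over the members and 0.04 over all genes, and of 0.75 over the members of complex IV. Without it 38 members fell and 4 rose on ribosomes, against 33.3% and 34.8% of 12732 genes, and the members' median was −1.22. In all 6 omissions 39 of the 42 calls on ribosomes held. For efficiency, 36 members fell and 4 rose without both of the libraries that stood apart, against 29.3% and 29.5% of 12312 genes, with a median of −0.79. UQCRQ, CYCS and COX8A were the calls gained there, UQCRQ as a rise of 0.57. The part of these libraries in each result was not tested beyond leaving them out.

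**Figure D4:**
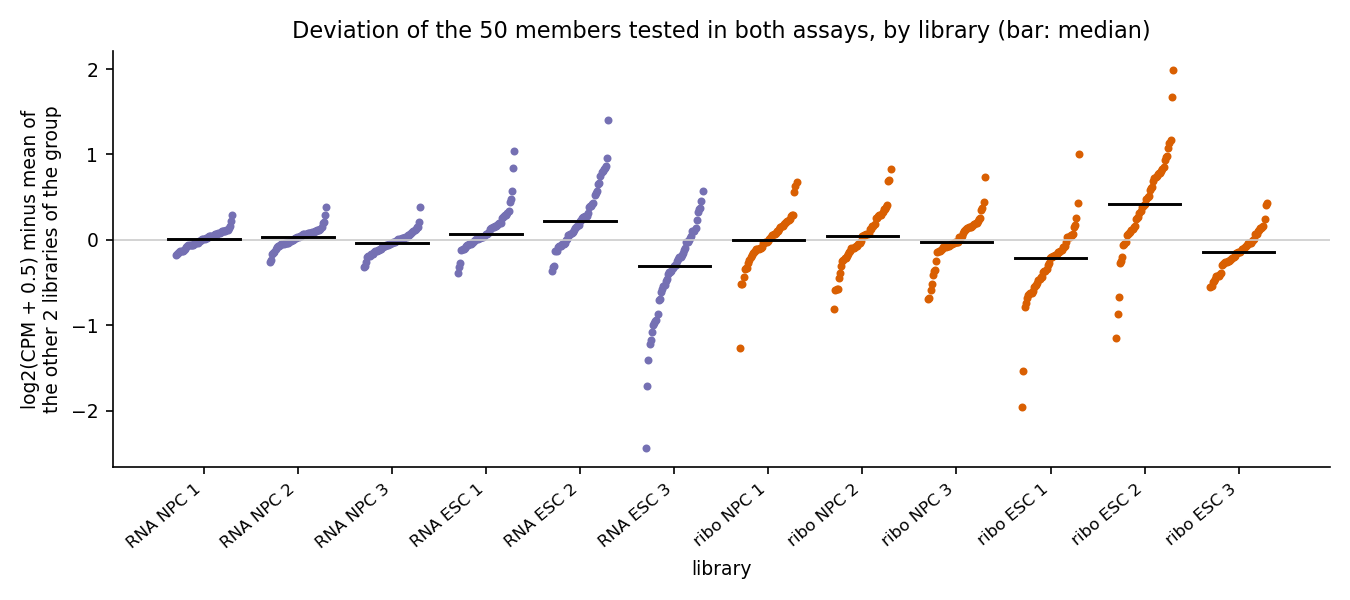
Difference of each of the 50 members tested in both assays from the mean of the other 2 libraries of its group, on the log2(CPM + 0.5) scale (vertical axis), for each library (horizontal axis), with NPC left of ESC within an assay and bars for medians. Medians of the NPC libraries lie near 0, although single members reach −1.27 in ribosome-bound NPC replicate 1. RNA ESC replicate 3 reaches down to −2.44, and ribosome-bound ESC replicate 2 has its median well above 0.

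Genes around these complexes were read from the same fits, with at most 2 rises and 2 falls named per list and comparison. The complex I list, 37 nuclear subunits of the enzyme that takes electrons from NADH, had 11 lower and 3 higher in RNA, and 26 of 34 lower and 1 higher on ribosomes, with medians of −0.22 and −1.19. The shares that fell were 29.7% in RNA, near the 26.2% of all genes, and 76.5% on ribosomes. Without RNA ESC replicate 3, 25 of 37 fell in RNA, against 34.7% of all genes. Without ribosome-bound ESC replicate 2, 25 of 35 fell and 3 rose there, against 33.3% and 34.8%. NDUFA8 was lowest on ribosomes (−2.86 ± 0.20) and NDUFV2 the one called higher (3.53 ± 0.66). Among 32 assembly factors outside the symbol rule, 6 fell and 5 rose in RNA, and 17 of 27 fell and 2 rose on ribosomes. The RNA shares, 18.8% and 15.6%, were below the 26.2% and 26.4% of all genes. On ribosomes the shares were 63% and 7.41%, against 30.3% and 31.6%. Without the library that stood apart in each assay, 10 fell and 7 rose in RNA, and 13 fell and 3 rose on ribosomes. Calls then rose over all genes too, of which 34.7% fell and 34.9% rose in RNA, and 33.3% and 34.8% on ribosomes. SDHAF4, which matures SDHA, rose in both assays (1.45 ± 0.19 in RNA and 0.84 ± 0.22 on ribosomes), and SDHAF2, which attaches the flavin to SDHA, fell on ribosomes (−1.91 ± 0.47).

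The mRNAs that mitochondria transcribe for complexes III, IV and V went a different way. All 6 fell in RNA, against 26.2% of all genes, with a median of −1.69. On ribosomes their log2 fold changes lay between −0.14 and 0.32, with a median of 0.16 and adjusted p of 0.415 or more. MT-ATP6 was at 210.5 CPM in NPC and 773 CPM in ESC in RNA, and at 49.2 CPM in NPC and 42.6 CPM in ESC on ribosomes (means of 3). Efficiency of 5 of the 6 rose, against 22.9% of all genes. That of MT-ATP6 rose the most (2.04 ± 0.27), and MT-CO1, named because it was the exception, had no call (0.82, adjusted p = 0.122). Without the libraries that stood apart, 3 of the 6 rose on ribosomes and efficiency of all 6 rose. Of all genes, 34.8% rose on ribosomes and 29.5% in efficiency in those fits. Mitochondrial ribosomes read these mRNAs, and the sources used here do not give whether the isolation took both kinds of ribosome.

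Among 16 nuclear regulators of respiratory genes, 7 fell and 2 rose in RNA, and 8 of 15 fell and 2 rose on ribosomes. The RNA shares were 43.8% and 12.5%, against 26.2% and 26.4% of all genes. On ribosomes they were 53.3% and 13.3%, against 30.3% and 31.6%. Without the library that stood apart in each assay, 11 fell and 3 rose in RNA, and 8 of 16 fell and 3 rose on ribosomes. Of all genes then tested, 34.7% fell and 34.9% rose in RNA, and 33.3% and 34.8% on ribosomes. PPARGC1B, a coactivator of mitochondrial genes, was at 19.5 CPM in NPC and 107 CPM in ESC in RNA (−2.46 ± 0.13, adjusted p = 3.03e-06). GABPB2 had the largest called rise of this list in RNA (1.19 ± 0.17). NRF1, whose motif was in 13 member promoters, rose slightly in RNA (0.41 ± 0.12, adjusted p = 0.0199), and GABPA, the DNA-binding part of GABP, rose on ribosomes (1.30 ± 0.28) with a log2 fold change of 0.03 and no call in RNA (0.23, adjusted p = 0.0199 without ESC replicate 3). CLUH, an RNA-binding protein known to bind mRNAs of mitochondrial proteins, fell in RNA (−1.29 ± 0.36) and had no call on ribosomes (−0.07). SLIRP, which steadies mitochondrial mRNAs, was among the falls on ribosomes (−1.67 ± 0.29).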

How the data were processed

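Gene counts of 12 libraries, as deposited by the authors in 1 table, were made from trimmed reads with cutadapt 1.18, Bowtie 1.2, STAR 2.7.1a and featureCounts 1.6.4 on hg38 (GRCh38), per the submitters' processing notes. The sources used here do not name the annotation, the strand setting or how reads matching several places were counted. Columns of the table that were not used numbered 0. In R 4.3.3, edgeR 4.0.16 (TMM scaling, filterByExpr, quasi-likelihood test) was fitted to each assay, and to all 12 libraries for efficiency, with Benjamini-Hochberg adjustment over all genes tested and a threshold of 0.05. Standard errors are the log2 fold change over the root of F. Scripts were tested on simulated data. DESeq2 1.42.0, other scalings, no filter, a replicate block and single-library omissions were alternatives. The members and lists were chosen with earlier results of these data known. Values in full were given to the 4 called members with the lowest and the 4 with the highest change per comparison (groups not overlapping, at least 10 CPM in the higher state), to paralogue groups, and to CYCS, CYC1, SDHA to SDHD and ATP5IF1. Same-numbered RNA libraries deviated together (r = 0.369, 0.250 and 0.584), each over 0.1, although NPC replicates 1 and 2 correlated best with ESC replicates 2 and 1. Ribosome-bound ones did not (−0.160, −0.253 and −0.00742). Whether the numbers pair the libraries is therefore uncertain. The main fits and the permutation tests were unpaired, and pairing entered only through the replicate block as an alternative. No 2 libraries agreed within sampling noise (chi-square per degree of freedom 3.76 or more).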

Additional observations from a re-analysis of the deposited data

Results flagged for a closer look

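Counts outside the members appeared for copies of SDHA. SDHAP1 had 24.4 ± 1.21 CPM in NPC and 9.93 ± 2.32 CPM in ESC in RNA (SD, n = 3 each; log2 fold change 1.30, adjusted p = 0.000685 by edgeR's quasi-likelihood test with Benjamini-Hochberg adjustment). SDHAP3 had 14.3 ± 0.80 CPM in NPC and 11.1 ± 0.553 CPM in ESC in RNA (0.37, edgeR adjusted p = 0.0419). On ribosomes SDHAP3 had 8.41 ± 1.94 CPM in NPC and 4.44 ± 1.80 CPM in ESC (0.92, edgeR adjusted p = 0.0552), which did not pass the threshold. SDHA itself fell in RNA, and the part of its copies in that value was not tested.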

How the results depend on the processing

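Single-library omissions moved the RNA counts most: members that fell numbered 13 to 40 and members that rose 1 to 5. For efficiency, members that rose numbered 1 to 4, and medians ranged from −0.94 to −0.66 in complex II, from −1.26 to −0.73 in complex IV and from −1.26 to −0.86 in complex V, where 4, −0.73 and −0.86 came without RNA ESC replicate 3 and ribosome-bound ESC replicate 2 together, an alternative chosen after seeing the data. The median of complex II on ribosomes ranged from −1.47 to −1.29. With the replicate block, 4 members rose in RNA, and upper-quartile scaling gave complex II a median of −0.47 in RNA. Upper-quartile scaling and the fit without a filter each ended the RNA calls of SDHA, COX18, COX20, ATP5F1C and ATP5MD.

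Members without a call changed sign as follows. In RNA, the ranges over omissions were −0.0053 to 0.086 for UQCRC2, −0.40 to 0.025 for UQCRQ, −0.15 to 0.14 for COX4I1, −0.45 to 0.019 for COX5B, −0.080 to 0.10 for COX7A2, −0.78 to 0.10 for COX8A, −0.27 to 0.42 for COX6B2 and −0.14 to 0.13 for COX15. COX4I1 was at −0.00781 under RLE scaling and −0.00777 under DESeq2, and COX15 at 0.034 under upper-quartile scaling and 0.0078 with the replicate block. On ribosomes they were −0.33 to 0.24 for UQCRQ and −0.17 to 0.038 for COX6A1. For efficiency they were −0.69 to 0.031 for SDHA, −0.24 to 0.57 for UQCRQ, −0.070 to 0.51 for COX6A1, −1.17 to 0.20 for COX16, −0.35 to 0.22 for ATP5F1E and −0.37 to 0.17 for ATP5IF1, with 0.57, 0.04, 0.22 and 0.17 for UQCRQ, COX16, ATP5F1E and ATP5IF1 without both libraries. The cause was not tested. Adding the counts of ATP5F1EP2 to ATP5F1E, also chosen after seeing the data, ended its call on ribosomes. SDHD, UQCR11, UQCRHL and COX6B2 had too few ribosome-bound counts to be tested.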
